A study of Rattus norvegicus with 9 samples.

Results

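This report covers 10 genes of the acute-phase and NF-kappaB response, taken by symbol from the 32883 genes of a rat fibroblast series: Ptx3, Sod2, Wfdc18, Hp, Lcn2, Nfkbia, Tnfaip3, S100a8, S100a9 and Nos2. The 10 genes were chosen with their deposited levels in the 3 fibroblast types known. Their differences between the types are therefore given as a description. Any edgeR result given for them is no independent test and only marks the spread between libraries.

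The study compared fibroblasts grown from the outer sheath of the sciatic nerve (epineurium, Fb-Epn), from the inner nerve tissue (parenchyma, Fb-Par) and from abdominal skin (Fb-Skn). All 3 types came from wild-type male Lewis rats aged 10 weeks, the nerve cells from the sciatic nerves of 2 rats and the skin cells from 1 different rat. The tissues were digested with collagenase and trypsin, and the cells grew in a medium with serum and were passaged 1 time before RNA was taken. Each type has 3 libraries, made from poly(A) RNA with strand kept and read in pairs of 150 bp. The labels name no treatment, and whether digestion and culture induced these genes was not tested. Nerve and skin cells differ in tissue, rat and body site at once, and the sources used here do not show whether the 3 libraries of a type are separate cultures. The p values below therefore measure only the spread between libraries, which may be technical.

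Levels are given in TPM (the share of a gene among all transcripts of a library, with gene length taken into account) and in counts of reads or read pairs per gene. Total counts ran from 10084584 to 12310506 per library. A gene with 0 counts in a type gets a lower bound on its ratio, which sets 3 counts per library in place of the 0. That bound covers the error of counting alone. Ratios between types are of mean TPM as deposited. The edgeR log2 fold changes come from counts scaled anew between libraries, so the 2 measures need not match, mainly where skin is compared. A difference between types in RNA from these cultures can come from fewer cells of a kind or from less RNA per cell, and these cannot be told apart.

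The label of the cells was checked against fibroblast markers. All 9 of the 9 markers in the table were tested and present in each library, with a summed level of 35360 to 44380 TPM and Col1a1 as the most abundant. As for the name of the gene group, 7 of the 10 genes had enough counts to be tested and 3 did not: S100a8, S100a9 and Nos2. The 7 detected genes do not share 1 order of the types by mean level.

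NF-kappaB is a family of transcription factors held in the cytoplasm by IkappaB proteins until a receptor signal such as interleukin 1 or tumour necrosis factor frees them. They switch on inflammatory genes and also their own brakes, among them the genes for IkappaB alpha and A20. The acute-phase response is the set of secreted proteins, best known from the liver, that rises in inflammation through NF-kappaB together with STAT3 and C/EBP factors.

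**Figure D1:**
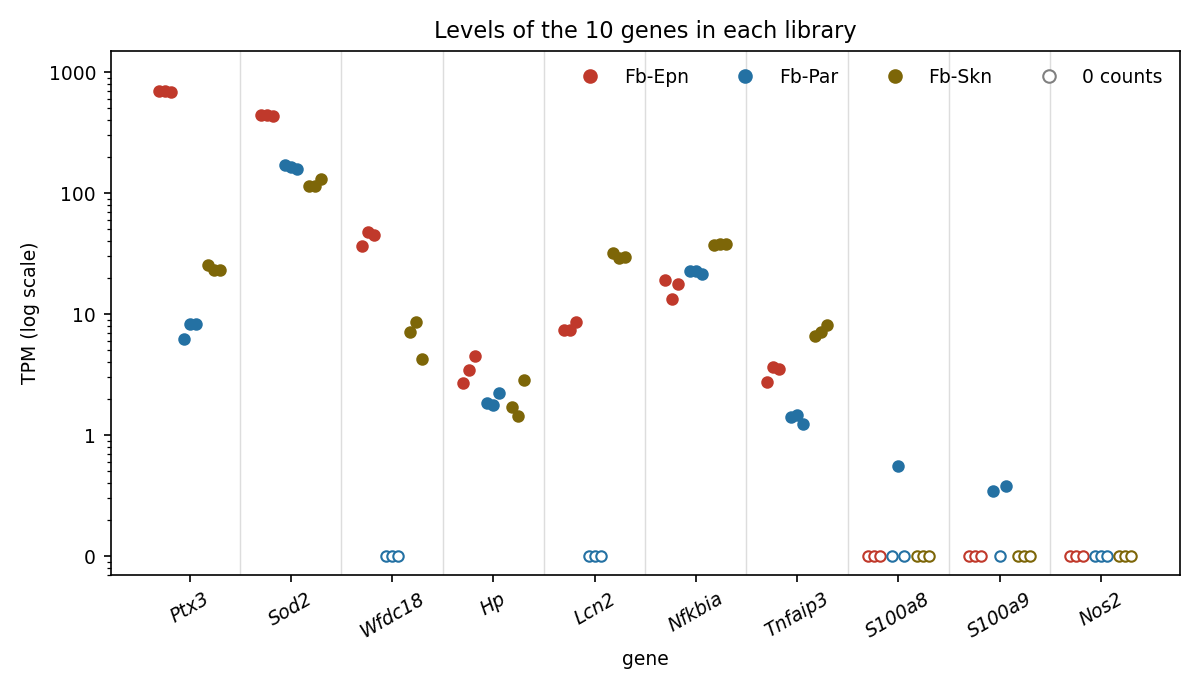
Level of each of the 10 genes in each of the 9 libraries in TPM, on a log scale with libraries at 0 counts drawn open at the bottom. Ptx3 runs from 6.26 to 695 TPM, while Nos2 has 0 counts in all 9 libraries.

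Ptx3 codes for pentraxin 3, a secreted pattern recognition protein that also binds the hyaluronan matrix, and it reached the highest level of the 10 genes. Its gene (ENSRNOG00000012280) lies at chr2:158097843-158103653 on the plus strand of rn6. It stood at 691, 695 and 687 TPM in Fb-Epn, at 6.26, 8.22 and 8.33 TPM in Fb-Par, and at 25.6, 22.9 and 23.0 TPM in Fb-Skn. All 3 Fb-Epn libraries are far above the other 6, all 3 Fb-Skn libraries are above the Fb-Par libraries, and no types overlap. The mean in Fb-Epn was 90.9 times that in Fb-Par and 29.0 times that in Fb-Skn, and the mean in Fb-Skn was 3.13 times that in Fb-Par. The edgeR log2 fold changes were 6.52 (standard error 0.073) for Fb-Epn against Fb-Par, 4.71 (0.062) for Fb-Epn against Fb-Skn and -1.81 (0.095) for Fb-Par against Fb-Skn. Ptx3 lies inside the Veph1 gene on the opposite strand, which had 90 counts over the 9 libraries beside 21898 for Ptx3.

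Sod2, the gene for the manganese superoxide dismutase of mitochondria and a known NF-kappaB target, was the other abundant gene. It lies at chr1:47914759-47921587 on the minus strand of rn6 (ENSRNOG00000019048). Its levels were 441, 439 and 429.9 TPM in Fb-Epn, 171, 165 and 159.6 TPM in Fb-Par, and 115, 115 and 131 TPM in Fb-Skn. Fb-Epn is high, Fb-Par intermediate and Fb-Skn lowest, with each library inside its own band and no overlap. The mean in Fb-Epn was 2.65 times that in Fb-Par and 3.63 times that in Fb-Skn, with log2 fold changes of 1.41 (standard error 0.045) and 1.72 (0.046). Fb-Par exceeded Fb-Skn 1.37 times in mean TPM, while the edgeR log2 fold change from rescaled counts was 0.31 (0.047). Unlike Ptx3, Sod2 is therefore higher in the inner nerve than in the skin cells.

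Wfdc18 codes for a small secreted protein with a WAP (whey acidic protein) domain, a fold found in protease inhibitors. The gene (ENSRNOG00000037097) lies at chr10:71008709-71010863 on the plus strand of rn6. It gave 36.6, 48.0 and 45.2 TPM in Fb-Epn and 7.09, 8.60 and 4.26 TPM in Fb-Skn, with counts of 81, 120 and 101 and of 17, 18 and 9. All 3 Fb-Par libraries had 0 counts, and the libraries of Fb-Epn and Fb-Skn do not overlap. Fb-Epn was 6.51 times Fb-Skn (log2 fold change 2.55, standard error 0.27) and at least 32.2 times Fb-Par, while Fb-Skn was at least 5.08 times Fb-Par. Another gene model, AABR07030143.1, overlaps Wfdc18 on the same strand and had 7 counts over the 9 libraries.

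Lcn2 codes for lipocalin 2, a secreted protein that binds bacterial iron carriers, and was the gene with the clearest excess in skin cells. It lies at chr3:11414186-11417546 on the minus strand of rn6 (ENSRNOG00000013973). The levels were 7.39, 7.33 and 8.63 TPM in Fb-Epn (33, 37 and 39 counts) and 32.0, 29.3 and 29.8 TPM in Fb-Skn (155, 124 and 127 counts). Fb-Par again had 0 counts in all 3 libraries, and every Fb-Skn library is above every Fb-Epn library. Fb-Skn was 3.90 times Fb-Epn in mean TPM, and the edgeR log2 fold change for Fb-Epn against Fb-Skn was -2.10 (standard error 0.18). The ratios to Fb-Par were at least 11.7 for Fb-Epn and at least 46.9 for Fb-Skn. Lcn2 and Wfdc18 thus share the absence in Fb-Par but order the other 2 types in opposite ways.

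Nfkbia codes for IkappaB alpha, the inhibitor that NF-kappaB induces against itself, and lies at chr6:76267228-76270457 on the minus strand of rn6 (ENSRNOG00000007390). It measured 19.2, 13.4 and 17.9 TPM in Fb-Epn, 22.5, 22.5 and 21.4 TPM in Fb-Par, and 37.4, 37.9 and 37.8 TPM in Fb-Skn. Skin is high and even, Fb-Par is in between, and Fb-Epn is lowest with its replicate 2 below its other 2 libraries. The types do not overlap, although the gap between Fb-Epn and Fb-Par is small. Fb-Skn was 2.24 times Fb-Epn and 1.70 times Fb-Par, with log2 fold changes of -1.31 (standard error 0.12) and -0.92 (0.11) for the nerve types against skin. Fb-Par was 1.32 times Fb-Epn (log2 fold change -0.39, standard error 0.12, for Fb-Epn against Fb-Par), which did not pass the threshold used below and ran from -0.49 to -0.25 with a library left out.

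Tnfaip3 codes for A20, the ubiquitin editing enzyme that ends NF-kappaB signalling, and lies at chr1:14402913-14412807 on the minus strand of rn6 (ENSRNOG00000049517). Its levels were low: 2.77, 3.67 and 3.54 TPM in Fb-Epn, 1.42, 1.47 and 1.23 TPM in Fb-Par, and 6.53, 7.14 and 8.10 TPM in Fb-Skn. Each type again forms its own band, with skin highest and Fb-Par lowest. Fb-Skn was 2.18 times Fb-Epn and 5.29 times Fb-Par, and Fb-Epn was 2.43 times Fb-Par. The log2 fold changes were 1.29 (standard error 0.22) for Fb-Epn against Fb-Par, -1.26 (0.19) for Fb-Epn against Fb-Skn and -2.54 (0.21) for Fb-Par against Fb-Skn. The 2 feedback inhibitors among the 10 genes are thus both highest in skin, where Ptx3 and Sod2 are not.

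Hp codes for haptoglobin, the acute-phase protein that binds free haemoglobin, and lies at chr19:42097995-42100804 on the plus strand of rn6 (ENSRNOG00000014964). It was barely detected, at 2.70, 3.43 and 4.50 TPM in Fb-Epn, 1.85, 1.79 and 2.21 TPM in Fb-Par, and 1.71, 1.43 and 2.83 TPM in Fb-Skn. The counts per library ran from 8 to 27. Fb-Epn libraries are the highest on average, but Fb-Skn replicate 3 exceeds Fb-Epn replicate 1, and the Fb-Par and Fb-Skn libraries overlap. The ratio of Fb-Epn to Fb-Par was 1.82 and that of Fb-Epn to Fb-Skn 1.78, with log2 fold changes of 0.87 (standard error 0.35) and 0.69 (0.35). Hp did not pass the threshold used below in any comparison. In the deposited FPKM the ratio of Fb-Epn to Fb-Par was 3.14. These FPKM are no rescaling of the counts, and why the 2 ratios differ was not tested.

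S100a8 and S100a9 code for the 2 chains of calprotectin, which neutrophils hold in large amounts, and they lie near each other at chr2:190073815-190074354 (plus strand, ENSRNOG00000011557) and chr2:190097554-190100276 (minus strand, ENSRNOG00000011483) of rn6. S100a8 had 1 count in Fb-Par replicate 2 and 0 counts in the other 8 libraries. S100a9 had 1 count each in Fb-Par replicates 1 and 3 and 0 counts in the other 7 libraries. Nothing can be read from values this low. The neutrophil markers were also near 0: of the 14 in the table, 6 had 0 counts in all libraries (Mpo, Elane, Ctsg, Ltf, Cd177 and Cxcr2) and Ptprc, which is no marker of neutrophils alone, was the only 1 with enough counts to be tested. Nos2, the gene for the inducible nitric oxide synthase (chr10:66189786-66313190, plus strand of rn6, ENSRNOG00000057443), had 0 counts in all 9 libraries.

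Taken by mean TPM, the 7 detected genes follow 4 orders of the types. Ptx3 and Wfdc18 run from Fb-Epn over Fb-Skn to Fb-Par. Hp does too by its means, but its Fb-Skn mean is only 1.02 times that of Fb-Par, with overlapping libraries, and the sign of the log2 fold change of Fb-Par against Fb-Skn turns when a library is left out (-0.36 to 0.15). Sod2 runs from Fb-Epn over Fb-Par to Fb-Skn. Lcn2 and Tnfaip3 run from Fb-Skn over Fb-Epn to Fb-Par, and Nfkbia from Fb-Skn over Fb-Par to Fb-Epn. The last step of Nfkbia did not pass the threshold, and neither did Hp in any of the 3 comparisons. The order of each of the 7 genes was the same in library-scaled counts (CPM) and in FPKM. CPM and TPM rest on the same counts, so their like order is nearly given and adds no support. The 3 comparisons share their libraries, so the orders are not 3 separate observations.

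For reading these values, the whole transcriptome gives the background. In Fb-Epn against Fb-Par, 5145 of 13273 genes tested (38.8%) had an adjusted p under 0.01, 2676 higher (20.2%) and 2469 lower (18.6%), and 860 (6.48%) were also beyond a log2 fold change of 2 or -2. In Fb-Epn against Fb-Skn it was 5830 genes (43.9%), 3052 higher (23.0%) and 2778 lower (20.9%), with 1120 (8.44%) beyond 2. In Fb-Par against Fb-Skn it was 6052 genes (45.6%), 3077 higher (23.2%) and 2975 lower (22.4%), with 1133 (8.54%) beyond 2. Of the 7 detected genes of the group, 5, 6 and 6 were under the same threshold in the 3 comparisons, beside 38.8%, 43.9% and 45.6% of all genes, and nothing is read from these counts since the genes were chosen on their levels. A difference between these cell types is thus common for any gene.

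The split of all genes depends on the scaling wherever skin is compared. The settings in TPM and FPKM changed the unit and the test along with the scaling. Of the genes past the threshold in Fb-Epn against Fb-Skn, 52.3% were higher in Fb-Epn with TMM scaling, 53.5% with RLE and 53.3% with upper-quartile factors, but 63.7% with library size only, 63.2% in FPKM and 69.0% in TPM, the last 2 with limma. In Fb-Par against Fb-Skn the shares were 50.8%, 53.0%, 49.2%, 61.9%, 61.0% and 66.9%. Under limma on TPM with 1 added, the median log2 fold change of all genes was 0.13 in Fb-Epn against Fb-Skn and 0.12 in Fb-Par against Fb-Skn. Hp (-0.17) and Sod2 (0.31) in Fb-Par against Fb-Skn have the smallest log2 fold changes of the group in that comparison.

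Among 13042 genes compared by the shape of their mean log2 levels over the types, the nearest to Ptx3 was the chemokine gene Ccl12 (distance 0.438; 67.6, 0.202 and 1.49 TPM in the order Fb-Epn, Fb-Par, Fb-Skn), followed by Msln (1.01) and the chemokine gene Ccl7 (1.02; 808, 25.8 and 53.2 TPM). Lcn2 was nearest to Dmrt2 (0.281; 7.48, 0.292 and 33.4 TPM), Cpxm2 and Rspo4, and Wfdc18 to LOC100911130 (0.768), Cemip and Slc16a3. For the genes with smaller ranges the nearest, by rank, were Arid5a, Dnajc22 and Syk for Sod2 and Brms1, Tdrkh and Catsperg for Nfkbia. They were Vkorc1l1, Gng3 and S100a4 for Tnfaip3, and Cks1b, Pgam2 and Rps15al4 for Hp. For Brms1, Vkorc1l1 and LOC100911130 the libraries of a type disagree, with Vkorc1l1 between 0 and 15.6 TPM inside Fb-Epn and LOC100911130 between 2.02 and 45.8 TPM inside Fb-Skn.

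To place the 10 genes, 15 pathway lists of related genes were set up, holding 253 genes in the table of which 193 had enough counts to be tested. Across all marker and pathway lists 19 genes belong to 2 lists. For each list the genes with an edgeR p under 0.01, adjusted over all 13273 genes, are counted as higher or lower in the first type, and no test was made on a list as a whole. Over all genes the shares higher and lower were 20.2% and 18.6% in Fb-Epn against Fb-Par, 23.0% and 20.9% in Fb-Epn against Fb-Skn, and 23.2% and 22.4% in Fb-Par against Fb-Skn. Some list counts move under another scaling, unit, test or filter. Only part of these moves is given beside the counts below, and the others stand under "How the results depend on the processing". The median log2 fold changes of a list can be read beside those of all genes, which were -0.00018 for Fb-Epn against Fb-Par, -0.0028 for Fb-Epn against Fb-Skn and -0.012 for Fb-Par against Fb-Skn. The list genes named below with a change are those with the largest changes under the threshold. In all 122 such calls, every library of the higher type is above every library of the lower type. These genes were picked for large changes under the threshold, so this is nearly given and no further support. The share without overlap over all genes was not counted. Of the 122, 14 were lost when some single library was left out, and none of these 14 is given with a p value here.

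**Figure D2:**
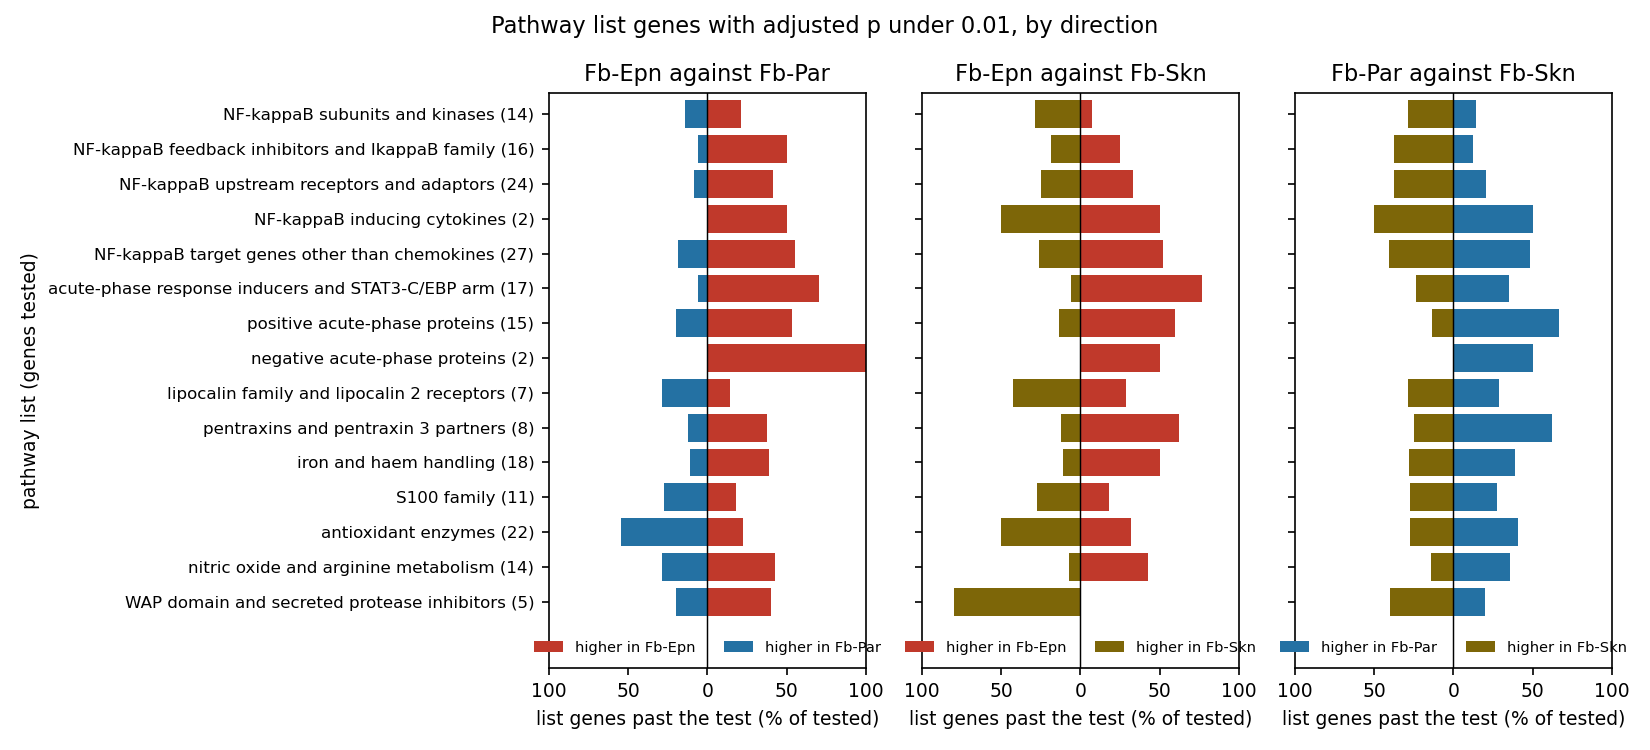
Share of the tested genes of each pathway list that is higher (right) or lower (left) in the first type with an adjusted p under 0.01. The STAT3 and C/EBP list has 12 of 17 tested genes higher in Fb-Epn relative to Fb-Par and 13 of 17 higher than in Fb-Skn.

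Of 14 genes for NF-kappaB subunits and kinases, all 14 tested, 3 were higher and 2 lower in Fb-Epn relative to Fb-Par (median log2 fold change 0.06), 1 higher and 4 lower in Fb-Epn relative to Fb-Skn (-0.06), and 2 higher and 4 lower in Fb-Par relative to Fb-Skn (-0.05). These 5, 5 and 6 of 14 stand beside 38.8%, 43.9% and 45.6% of all genes, and are no result about the list. The 2 higher in Fb-Par became 4 with limma on TPM. The count of 2 lower in Fb-Epn relative to Fb-Par was 1 when any of the 6 libraries of Fb-Epn replicates 1 to 3 and Fb-Par replicates 1 to 3 was left out. Relb, which codes for a subunit of the non-canonical arm, was highest in skin at a mean of 20.7 TPM, beside 13.1 TPM in Fb-Epn and 8.14 TPM in Fb-Par. Its edgeR log2 fold change was -1.50 in Fb-Par against Fb-Skn (adjusted p 3.69e-07), in all 3 against all 3 libraries. Nfkb2, its partner in that arm, also rose from Fb-Par to skin, with -0.89 for Fb-Par against Fb-Skn (edgeR adjusted p 1.31e-08). This is the order of Tnfaip3, highest in skin and lowest in Fb-Par. Tab2 had the highest mean TPM of the list over all 9 libraries, though not in each type, with 61.4, 60.3 and 74.8 TPM in the order Fb-Epn, Fb-Par, Fb-Skn.

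The feedback inhibitors and IkappaB family genes besides Nfkbia and Tnfaip3 came next. Of the 18 found, 16 were tested, with 8 higher and 1 lower in Fb-Epn relative to Fb-Par (median 0.37), 4 higher and 3 lower in Fb-Epn relative to Fb-Skn (0.14), and 2 higher and 6 lower in Fb-Par relative to Fb-Skn (-0.25). The 4 and 3 of 16 are near the 23.0% and 20.9% of all genes, and the 4 became 7 with library size only and with limma on TPM. The 8 became 5 without Fb-Epn replicate 1 or Fb-Par replicate 3, the 1 became 0 without Fb-Epn replicate 3 or Fb-Par replicate 3, and the 2 became 1 without Fb-Par replicate 1, Fb-Skn replicate 1 or Fb-Skn replicate 2. Nfkbiz, for the nuclear IkappaB zeta that acts as a coactivator, had the order of Ptx3: 58.0 TPM in Fb-Epn, 8.38 TPM in Fb-Par and 10.8 TPM in Fb-Skn. Its edgeR log2 fold changes were 2.80 for Fb-Epn against Fb-Par (adjusted p 1.51e-12) and 2.28 for Fb-Epn against Fb-Skn (adjusted p 1.03e-11), each in 3 of 3 libraries. Zc3h12a, for the RNase regnase-1, had the order of Tnfaip3, with -1.58 in Fb-Par against Fb-Skn (edgeR adjusted p 1.28e-07), and Tnip1, for a partner of A20, gave -1.17 there (edgeR adjusted p 7.15e-11). Tax1bp1 was the most abundant of the list and varied least, at 168.5, 168.4 and 164 TPM.

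Among 25 upstream receptors and adaptors, 24 tested, 10 were higher and 2 lower in Fb-Epn relative to Fb-Par (median 0.13), 8 higher and 6 lower in Fb-Epn relative to Fb-Skn (0.05), and 5 higher and 9 lower in Fb-Par relative to Fb-Skn (-0.05). Without Fb-Skn replicate 1, the 5 became 3. The receptor genes Tnfrsf1b and Cd14 were highest in Fb-Epn, Tnfrsf1b with an edgeR log2 fold change of 2.85 against Fb-Par (adjusted p 1.12e-10) and Cd14 with 2.25 against Fb-Skn (adjusted p 8.69e-09). Cd40 went the other way, -2.12 in Fb-Epn against Fb-Skn (edgeR adjusted p 1.74e-06). Tnfrsf1a, for the main receptor of tumour necrosis factor, was the most abundant, with 210.5, 179 and 172 TPM in the order Fb-Epn, Fb-Par, Fb-Skn.

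The cytokines that drive NF-kappaB were mostly absent. Of 10 genes 4 had 0 counts in all libraries (Il17a, Lta, Tnfsf11 and Tnfsf14) and 2 were tested, with 1 higher and 0 lower in Fb-Epn relative to Fb-Par and 1 higher and 1 lower in each of the comparisons with skin. The first 1 became 0 without Fb-Epn replicate 1, Fb-Par replicate 1 or Fb-Par replicate 2. Il33, for a nuclear alarmin, was a gene of the nerve types, at 275, 240.5 and 30.7 TPM in the order Fb-Epn, Fb-Par, Fb-Skn, with edgeR log2 fold changes of 3.03 for Fb-Epn (adjusted p 7.78e-15) and 2.82 for Fb-Par (adjusted p 1.43e-14) against Fb-Skn. Il1a was a gene of the skin cells, with 7.51 TPM there, 0.260 TPM in Fb-Epn and 0 counts in Fb-Par, so that skin was at least 16.6 times Fb-Par. For the 2 genes the median log2 fold changes were 1.99, -0.96 and -2.95 as fitted. With Il1a at its bound the first was 0.10 and the last -0.62.

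Of 32 NF-kappaB target genes that are not chemokines, 27 were tested, with 15 higher and 5 lower in Fb-Epn relative to Fb-Par (median 0.54), 14 higher and 7 lower in Fb-Epn relative to Fb-Skn (0.69), and 13 higher and 11 lower in Fb-Par relative to Fb-Skn (0.14). The 5 became 3 without Fb-Epn replicate 1, Fb-Epn replicate 2 or Fb-Par replicate 3 and with upper-quartile factors. F3, for tissue factor, had the order of Ptx3 and was the most abundant target, with 1909 TPM in Fb-Epn, 376 TPM in Fb-Par and 605 TPM in Fb-Skn. Bdkrb1, for the bradykinin B1 receptor, had the same order, at 4.15 for Fb-Epn against Fb-Par (edgeR log2 fold change, adjusted p 1.26e-08). Mmp9 was lowest in Fb-Par as well, with 3.19 in Fb-Epn against Fb-Par (edgeR adjusted p 4.29e-08), but Fb-Epn against Fb-Skn did not pass (0.37, edgeR adjusted p 0.12). Vcam1 instead ran from Fb-Epn over Fb-Par to Fb-Skn as Sod2 does, with 3.50 against Fb-Par (edgeR adjusted p 2.75e-07) and 6.26 against Fb-Skn (edgeR adjusted p 1.54e-08). Mmp3 had the order of Lcn2, with 18.4 TPM in Fb-Skn, 0.990 TPM in Fb-Epn and 0.187 TPM in Fb-Par, and -6.63 in Fb-Par against Fb-Skn (edgeR adjusted p 6.49e-09). Such matches of order are a description alone, since 3 types allow few orders and their share over all genes was not counted.

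The inducers of the acute-phase response and the STAT3 and C/EBP arm were counted next. All 17 of 17 genes were tested, with 12 higher and 1 lower in Fb-Epn relative to Fb-Par (median 0.66), 13 higher and 1 lower in Fb-Epn relative to Fb-Skn (0.91), and 6 higher and 4 lower in Fb-Par relative to Fb-Skn (0.34). The last 4 became 2 with limma on TPM. Socs3, a feedback gene of STAT3, stood at 167, 39.0 and 18.3 TPM in the order Fb-Epn, Fb-Par, Fb-Skn, with edgeR log2 fold changes of 2.11 against Fb-Par (adjusted p 2.72e-11) and 3.05 against Fb-Skn (adjusted p 1.18e-12). Cebpd, for C/EBP delta, gave 465, 136 and 84.5 TPM, with 1.78 for Fb-Epn against Fb-Par (edgeR adjusted p 9.81e-13) and 2.32 against Fb-Skn (edgeR adjusted p 7.83e-14). Both hold the order of Sod2 and not that of Ptx3. Cebpa was highest in Fb-Par, with 2.20 in Fb-Par against Fb-Skn (edgeR adjusted p 2.05e-11). Over all 9 libraries Cebpb had the highest mean TPM of the list, though in no single type.

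Of 26 positive acute-phase proteins found, 15 were tested, and 4 had 0 counts in all libraries (Apcs, Fga, Serpina1 and Serpina3c). Here 8 were higher and 3 lower in Fb-Epn relative to Fb-Par (median 1.08), 9 higher and 2 lower in Fb-Epn relative to Fb-Skn (1.91), and 10 higher and 2 lower in Fb-Par relative to Fb-Skn (0.82). With Orm1, at 0 counts in Fb-Par, set at its bound, the first median was 0.69 and the last stayed at 0.82. Fga and Serpina1, which are typical of liver, are thus at 0 and Hp is low. The 15 genes of the list with enough counts to be tested include Lbp and Cp. Mt2A, for a metallothionein, had 401 TPM in Fb-Epn, 21.8 TPM in Fb-Par and 11.7 TPM in Fb-Skn, with edgeR log2 fold changes of 4.21 for Fb-Epn against Fb-Par (adjusted p 6.07e-13) and 4.95 against Fb-Skn (adjusted p 2.53e-13). Lbp, for the lipopolysaccharide binding protein, had 183, 86.3 and 5.94 TPM, with 4.81 for Fb-Epn against Fb-Skn (edgeR adjusted p 8.17e-16). C3 was instead highest in skin, with -4.64 in Fb-Par against Fb-Skn (edgeR adjusted p 1.77e-08). Over all 9 libraries Serping1 had the highest mean TPM of the list, though Mt2A and Lbp exceeded it in Fb-Epn.

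Of 5 negative acute-phase proteins, which fall in inflammation, Alb and Ttr had 0 counts in all libraries and 2 were tested. Of these 2 were higher in Fb-Epn relative to Fb-Par (median 1.49), 1 higher than in Fb-Skn (4.26), and 1 higher in Fb-Par relative to Fb-Skn (2.77), with 0 lower in each comparison. The first count became 1 when any 1 of Fb-Epn replicates 2 and 3 and Fb-Par replicates 1 to 3 was left out, and the count of 1 against Fb-Skn became 2 without Fb-Epn replicate 1 or Fb-Skn replicate 1. With Rbp4, at 0 counts in Fb-Skn, at its bound, the medians against skin were 1.94 and 0.44. Rbp4 had 8.20 TPM in Fb-Epn and 1.27 TPM in Fb-Par, an edgeR log2 fold change of 2.68 (adjusted p 4.31e-05). Tf was the most abundant of the list.

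Of 14 other lipocalins and receptors of lipocalin 2, 6 had 0 counts in all libraries (Lcn5, Lcn6, Lcn8, Lcn9, Lcn10 and Lcn11) and 7 were tested. In Fb-Epn against Fb-Par 1 was higher and 2 lower (median -0.51), in Fb-Epn against Fb-Skn 2 higher and 3 lower (-0.51), and in Fb-Par against Fb-Skn 2 higher and 2 lower (0.26), and the medians did not change with Rbp4 and Orm1 at their bounds. The 2 higher against Fb-Skn became 1 without Fb-Epn replicate 2, Fb-Skn replicate 2 or Fb-Skn replicate 3. Apod, for apolipoprotein D, had the reverse of the Lcn2 pattern: 45.2 TPM in Fb-Par, 1.18 TPM in Fb-Epn and 0.127 TPM in Fb-Skn, with edgeR log2 fold changes of -5.21 in Fb-Epn against Fb-Par (adjusted p 7.42e-10) and 7.97 in Fb-Par against Fb-Skn (adjusted p 2.14e-10). Slc22a17, for a receptor of lipocalin 2, was lower in Fb-Epn relative to Fb-Par, with -0.61 (edgeR adjusted p 1.48e-05), at 17.7, 27.2 and 27.5 TPM in the order Fb-Epn, Fb-Par, Fb-Skn.

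Of 14 other pentraxins and partners of pentraxin 3, 8 were tested and Apcs had 0 counts. In Fb-Epn against Fb-Par 3 were higher and 1 lower (median -0.02), in Fb-Epn against Fb-Skn 5 higher and 1 lower (0.87), and in Fb-Par against Fb-Skn 5 higher and 2 lower (1.27). The 1 lower became 2 without Fb-Skn replicate 1. None of the 8 ranges as widely between types as Ptx3. Tnfaip6, for the hyaluronan binding protein TSG-6, was level in the nerve types (48.5 and 47.9 TPM) and lower in skin (13.8 TPM), with an edgeR log2 fold change of 1.67 for Fb-Epn against Fb-Skn (adjusted p 1.69e-08). Has2, for a hyaluronan synthase, was lowest in Fb-Par as Ptx3 is, with 0.86 in Fb-Epn against Fb-Par (edgeR adjusted p 2.6e-06). C1qa, also in the macrophage list, gave 3.49 in Fb-Epn against Fb-Skn (edgeR adjusted p 2.09e-12), and Bmp1 was the most abundant gene of the list.

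All 18 genes of iron and haem handling were tested, with 7 higher and 2 lower in Fb-Epn relative to Fb-Par (median 0.27), 9 higher and 2 lower in Fb-Epn relative to Fb-Skn (0.37), and 7 higher and 5 lower in Fb-Par relative to Fb-Skn (0.09). The 5 became 2 with limma on TPM and 3 with limma on FPKM, and the 2 lower against Fb-Skn in Fb-Epn became 1 with both. Cd163, for the receptor that takes up haptoglobin with haemoglobin, had 8.81 TPM in Fb-Epn, 0.0713 TPM in Fb-Par and 0.279 TPM in Fb-Skn, with edgeR log2 fold changes of 6.75 for Fb-Epn against Fb-Par (adjusted p 9.48e-09) and 4.80 against Fb-Skn (adjusted p 4.4e-08). It is a macrophage marker as well. Fth1, for the ferritin heavy chain, was the most abundant, with 3679, 4675 and 2407 TPM in the order Fb-Epn, Fb-Par, Fb-Skn.

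Of 13 other genes of the S100 list, which also holds S100pbp for a binding partner, 11 were tested and S100z had 0 counts in all libraries, with 2 higher and 3 lower in Fb-Epn relative to Fb-Par (median -0.17), 2 higher and 3 lower in Fb-Epn relative to Fb-Skn (-0.37), and 3 higher and 3 lower in Fb-Par relative to Fb-Skn (0.17). The first 3 became 1 without Fb-Epn replicate 3, Fb-Par replicate 2 or Fb-Par replicate 3. The absence of S100a8 and S100a9 is thus not shared by the family: S100a6, with the highest mean TPM over all 9 libraries though not in skin, had 3999, 6132 and 2877 TPM. S100a4 had the order of Tnfaip3, with 895, 526 and 1827 TPM and an edgeR log2 fold change of -1.95 for Fb-Par against Fb-Skn (adjusted p 9.1e-13). S100b, also a Schwann cell marker, gave 3.88 in Fb-Epn against Fb-Skn (edgeR adjusted p 7.83e-14).

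The other antioxidant enzymes, all 22 of 22, were tested, with 5 higher and 12 lower in Fb-Epn relative to Fb-Par (median -0.27), 7 higher and 11 lower in Fb-Epn relative to Fb-Skn (-0.23), and 9 higher and 6 lower in Fb-Par relative to Fb-Skn (0.08). Nqo1, a target of NRF2, had 59.1 TPM in Fb-Epn, 263 TPM in Fb-Par and 108 TPM in Fb-Skn, with an edgeR log2 fold change of -2.15 for Fb-Epn against Fb-Par (adjusted p 5.1e-13). Sod3, the extracellular superoxide dismutase, was also highest in Fb-Par, with -1.53 there (edgeR adjusted p 2.29e-11) and 2.28 in Fb-Par against Fb-Skn (edgeR adjusted p 3.51e-13). Prdx5, for a peroxiredoxin, shared the high level in Fb-Epn with Sod2, at 1156, 396 and 492 TPM and 1.56 in Fb-Epn against Fb-Par (edgeR adjusted p 5.79e-12). Txn1 was the most abundant of the list.

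Around the silent Nos2, 14 of 18 genes of nitric oxide and arginine metabolism were tested, with 6 higher and 4 lower in Fb-Epn relative to Fb-Par (median 0.21), 6 higher and 1 lower in Fb-Epn relative to Fb-Skn (0.31), and 5 higher and 2 lower in Fb-Par relative to Fb-Skn (0.14). The last 2 became 1 without Fb-Par replicate 2, Fb-Skn replicate 1 or Fb-Skn replicate 2. The genes for the 2 chains of the nitric oxide receptor were genes of Fb-Par, Gucy1b1 at 213 TPM there beside 7.45 TPM in Fb-Epn and 2.07 TPM in Fb-Skn, with an edgeR log2 fold change of -4.83 for Fb-Epn against Fb-Par (adjusted p 9.99e-15), and Gucy1a1 with -5.32 (edgeR adjusted p 3.63e-15). Ddah1 was the most abundant of the list.

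Of 18 other genes for WAP domain proteins and secreted protease inhibitors, 8 had 0 counts in all libraries (Wfdc5, Wfdc9, Wfdc10a, Wfdc12, Wfdc13, Wfdc15a, Wfdc16 and Wap) and 5 were tested. In Fb-Epn against Fb-Par 2 were higher and 1 lower (median -0.02), in Fb-Epn against Fb-Skn 0 higher and 4 lower (-0.75), and in Fb-Par against Fb-Skn 1 higher and 2 lower (-0.35). With library size only, the 4 became 2. Slpi, for the secretory leukocyte protease inhibitor, had the order of Lcn2 with 17.4 TPM in Fb-Epn, 1.89 TPM in Fb-Par and 202 TPM in Fb-Skn. Its edgeR log2 fold changes were 3.18 in Fb-Epn against Fb-Par (adjusted p 8.76e-08), -3.67 in Fb-Epn against Fb-Skn (adjusted p 7.49e-12) and -6.85 in Fb-Par against Fb-Skn (adjusted p 3.01e-13). Wfdc1 was the most abundant at 959, 1846 and 997 TPM, highest in the type where Wfdc18 was not detected.

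**Figure D3:**
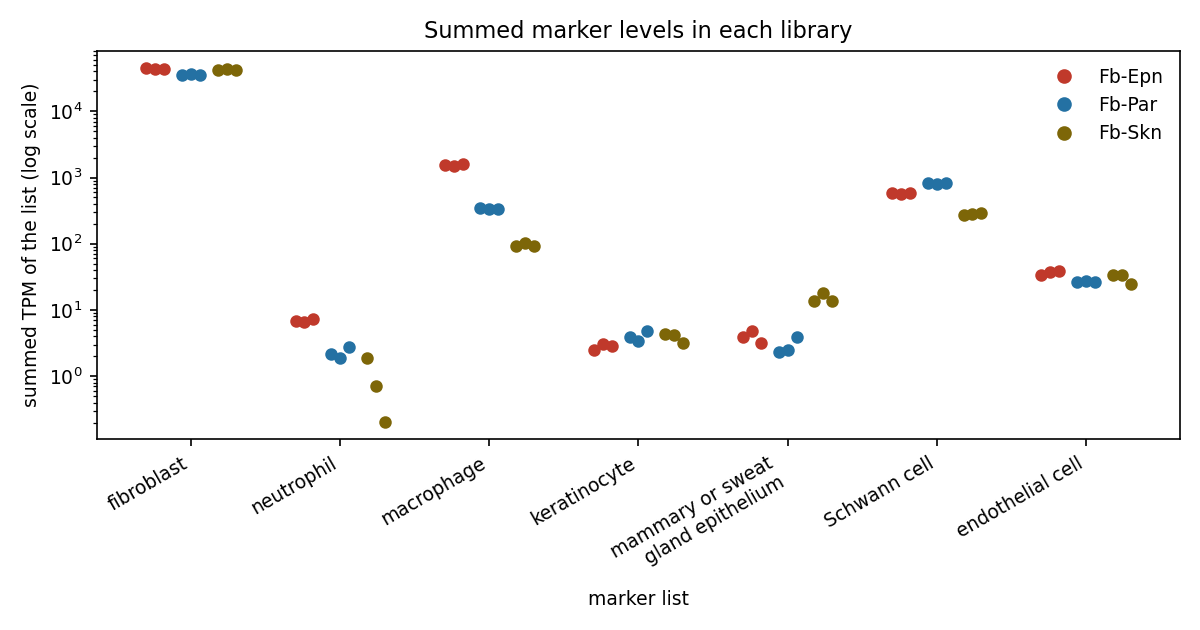
Summed TPM of each marker list in each library, on a log scale. The macrophage list sums to 1504 to 1587 TPM in Fb-Epn and to 93.0 to 100.9 TPM in Fb-Skn.

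Markers of other cells move between the types and so stand beside these results. All 15 of 15 macrophage markers were tested, with 14 higher and 0 lower in Fb-Epn relative to Fb-Par (median 1.90), 15 higher and 0 lower in Fb-Epn relative to Fb-Skn (3.84), and 14 higher and 0 lower in Fb-Par relative to Fb-Skn (2.05). They sum to 1540, 1504 and 1587 TPM in Fb-Epn, 350.8, 330.0 and 337.5 TPM in Fb-Par, and 93.6, 100.9 and 93.0 TPM in Fb-Skn, most of it from Lyz2 (957, 178 and 60.6 TPM). None is at 0 counts in a whole type, though Cd163 has 0 counts in Fb-Par replicates 2 and 3 and Adgre1 in Fb-Skn replicates 1 and 3. Their sum runs from Fb-Epn over Fb-Par to Fb-Skn. By mean TPM, Sod2, Socs3, Cebpd, Cd14, Lbp, Mt2A, Vcam1 and Il33 are among the genes with this order. Ptx3, Lcn2, Wfdc18, Nfkbia and Tnfaip3 have other orders. A like or unlike order does not show how much of a gene's RNA came from macrophages. Cd163 alone among the macrophage markers has the order of Ptx3 by mean TPM. The part of macrophages in the levels given here was not tested.

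All 9 of 9 Schwann cell markers were tested, with 0 higher and 8 lower in Fb-Epn relative to Fb-Par (median -1.11), 8 higher and 0 lower in Fb-Epn relative to Fb-Skn (6.40), and 9 higher and 0 lower in Fb-Par relative to Fb-Skn (7.61). Sox10, Erbb3 and Cdh19 are among the markers with 0 counts in all 3 Fb-Skn libraries, and with the markers at 0 set to their bounds the medians against skin are 4.33 and 5.45. The list sums to 583.7, 564.8 and 587.6 TPM in Fb-Epn, 812.7, 805.9 and 825.5 TPM in Fb-Par, and 273.1, 284.1 and 288.2 TPM in Fb-Skn, with Pmp22 the most abundant. None of the 7 detected genes has this order, which does not show how much of their RNA came from Schwann cells. The part of Schwann cells was not tested either.

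The other markers were low. Of 12 keratinocyte markers 1 was tested, with 0 higher and 0 lower in each comparison, and Krt1, Krt15, Krt17 and Dsg3 had 0 counts. Of 10 markers of mammary or sweat gland epithelium 2 were tested, with 1 higher and 0 lower in Fb-Epn relative to Fb-Par and 1 higher and 1 lower in each comparison with skin. Krt7 was the most abundant in skin with 14.8 TPM, and Elf5, Csn2, Wap and Foxa1 had 0 counts. Of 9 endothelial markers 5 were tested, with 2 higher and 0 lower in Fb-Epn relative to Fb-Par (median 2.01), 4 higher and 1 lower in Fb-Epn relative to Fb-Skn (3.04), and 2 higher and 1 lower in Fb-Par relative to Fb-Skn (2.93, or 1.03 with Cdh5 at its bound). Of the neutrophil list Ptprc was higher in Fb-Epn than in both other types and in Fb-Par than in skin, and the list sums to 6.81, 6.69 and 7.25 TPM in Fb-Epn, 2.17, 1.87 and 2.74 TPM in Fb-Par, and 1.90, 0.716 and 0.206 TPM in Fb-Skn. The 9 fibroblast markers also differ, with 5 higher and 4 lower in Fb-Epn relative to Fb-Par, 4 higher and 5 lower in Fb-Epn relative to Fb-Skn, and 6 higher and 3 lower in Fb-Par relative to Fb-Skn.

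The promoters are given as a description: the genes were grouped as NF-kappaB response genes, so matches to the NF-kappaB consensus among them are no separate finding. The RefSeq table of promoters (build GRCr8, not the rn6 build used for the genes above) matched 7 of the 10: Ptx3, Sod2, Wfdc18, Lcn2, Nfkbia, Tnfaip3 and S100a9. Not matched were Hp, S100a8 and Nos2. In the 250 bases before each start, both strands were searched for the NF-kappaB consensus of 10 letters, the C/EBP motif TTNNGNAA and the STAT motif TTCNNNGAA. These occur in 6.33%, 37.2% and 7.67% of all 33469 promoters of the table.

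The NF-kappaB consensus occurs in 4 of the 7, in Lcn2 at 242 to 233 bases before the start, in Nfkbia at 31 to 22, in Tnfaip3 at 170 to 161, 67 to 58 and 55 to 46, and in Ptx3 as 2 overlapping matches at 14 to 5 and 13 to 4. The C/EBP motif occurs in Lcn2, Ptx3, S100a9 and Tnfaip3 1 time each and in Wfdc18 2 times, and overlaps no NF-kappaB match. The STAT motif occurs in none of the 7, and Sod2 holds none of the 3 motifs in this window. Of the 4 genes with the consensus, Ptx3 is highest in Fb-Epn, and Lcn2, Nfkbia and Tnfaip3 are highest in Fb-Skn. A match describes letters and not a bound site.

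The 4 windows with the consensus are shown since they let the placement be compared. The letters run from 5′ to 3′ on the strand of the gene, with only the NF-kappaB matches in capitals. They are Ptx3 at chr2:152797313-152797562 (plus strand), Nfkbia at chr6:78597073-78597322, Tnfaip3 at chr1:15543980-15544229 and Lcn2 at chr3:36081781-36082030 (minus strand), all in GRCr8.
Ptx3: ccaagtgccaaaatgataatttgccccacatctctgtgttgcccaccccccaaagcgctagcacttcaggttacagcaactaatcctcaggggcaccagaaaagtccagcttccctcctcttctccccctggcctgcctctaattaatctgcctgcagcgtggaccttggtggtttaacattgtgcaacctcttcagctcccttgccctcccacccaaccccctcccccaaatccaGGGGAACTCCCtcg
Nfkbia: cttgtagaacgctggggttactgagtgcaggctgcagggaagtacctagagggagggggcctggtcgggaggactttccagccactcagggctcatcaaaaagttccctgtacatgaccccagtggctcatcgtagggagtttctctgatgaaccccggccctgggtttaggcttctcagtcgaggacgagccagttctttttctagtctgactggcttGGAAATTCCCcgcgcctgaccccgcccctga
Tnfaip3: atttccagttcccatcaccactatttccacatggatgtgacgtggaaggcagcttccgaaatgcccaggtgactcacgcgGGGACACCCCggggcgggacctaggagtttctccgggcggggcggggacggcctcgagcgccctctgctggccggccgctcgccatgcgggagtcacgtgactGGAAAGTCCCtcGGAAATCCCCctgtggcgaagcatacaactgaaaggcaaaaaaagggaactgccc
Lcn2: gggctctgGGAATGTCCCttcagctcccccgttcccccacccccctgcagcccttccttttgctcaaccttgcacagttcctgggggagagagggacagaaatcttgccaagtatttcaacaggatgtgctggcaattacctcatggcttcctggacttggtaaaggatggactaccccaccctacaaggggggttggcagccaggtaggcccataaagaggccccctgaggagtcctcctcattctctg

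In sum, the 10 genes divide by level and by type. Ptx3 and Sod2 are abundant and highest in Fb-Epn, Wfdc18 is highest in Fb-Epn and not detected in Fb-Par, and Lcn2, Nfkbia and Tnfaip3 are highest in Fb-Skn. Hp is near the limit of detection, and S100a8, S100a9 and Nos2 are at or near 0. Related genes outside the group show several of these orders as well, F3 and Nfkbiz with Ptx3, Socs3 and Cebpd with Sod2, and Mmp3 and Slpi with Lcn2. All values are levels of RNA in cultures with no named treatment, and neither the activity of NF-kappaB nor any protein was measured.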

How the data were processed

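Poly(A) RNA of cultured rat fibroblasts was sequenced in 9 libraries, in triplicate for the types Fb-Epn, Fb-Par and Fb-Skn. Per the processing notes, the submitters checked reads with FastQC 0.11.7, trimmed them with Trimmomatic 0.38, aligned them with HISAT2 2.1.0 to rn6 and counted them with featureCounts 1.6.3. Which annotation release was used, and whether counting kept the strand, is not given in the sources used here. The authors deposited a table of raw counts per gene for 32883 genes. The deposited TPM hold the same genes, and dividing counts by them returns a constant length for each gene within a relative 1.9e-08. The deposited FPKM are no rescaling of these counts: their ratio to TPM differed by over 10% between libraries in 819 of 9062 genes above 5 TPM in all libraries. FPKM were used only for a side value, for a check of the order of the types and for an alternative chosen after the data were seen.

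Libraries were given their type and replicate number from the labels. Replicate numbers were not used for pairing, since nothing in the sources ties equal numbers to 1 animal or batch. Total counts ran from 10084584 to 12310506, and between libraries of a type the counts differed by more than counting error (chi-square per degree of freedom 3.31 to 5.48), so no library is a copy of another. The common coefficient of variation was 8.25%.

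All 9 libraries went into 1 edgeR fit (edgeR 4.0.16, R 4.3.3) with TMM factors of 0.955 to 1.03, filterByExpr and the quasi-likelihood F test. The test adjusted p by Benjamini-Hochberg over the 13273 genes kept, and a gene passed under 0.01. DE genes are those that passed and had a log2 fold change beyond 2 or -2. The study names a p of 0.01 and a log2 fold change of 2, and here the p is the adjusted one. With 3 against 3 libraries an exact permutation p cannot be under 0.1, so none was made. A log2 fold change is the first type minus the second. The code was tested on simulated data. Alternatives used DESeq2 1.42.0, limma 3.58.1, other scaling factors and filters, a replicate block, only 6 libraries, and leaving out each library. Python 3.11.15 with numpy 2.4.6, pandas 2.3.3 and matplotlib 3.10.9 wrote the tables and figures.

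The 10 genes, the 15 pathway lists and the 7 marker lists were chosen with earlier results of these data known. The pathway lists are NF-kappaB subunits and kinases, NF-kappaB feedback inhibitors and IkappaB family, NF-kappaB upstream receptors and adaptors, NF-kappaB inducing cytokines, NF-kappaB target genes other than chemokines, acute-phase response inducers and STAT3-C/EBP arm, positive acute-phase proteins, negative acute-phase proteins, lipocalin family and lipocalin 2 receptors, pentraxins and pentraxin 3 partners, iron and haem handling, S100 family, antioxidant enzymes, nitric oxide and arginine metabolism, and WAP domain and secreted protease inhibitors. The marker lists are those of fibroblasts, neutrophils, macrophages, keratinocytes, mammary or sweat gland epithelium, Schwann cells and endothelial cells. List genes are named by a rule: per list and comparison, up to 3 genes with the largest log2 fold change among those under the threshold, and the gene with the highest mean TPM. Likeness was the Euclidean distance between mean log2(TPM + 1) values centred over the types, among genes of at least 1 TPM in some type. Promoter sequences are from RefSeq (GRCr8), and the 250 bases before the start were searched on both strands. Some list genes are not reported here by name.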

Additional observations from a re-analysis of the deposited data

How the results depend on the processing

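The result for the 10 genes rests on 3 libraries per type, which may be technical repeats, and on types that differ in tissue, rat and body site together. No alternative reversed the sign of a named list gene under the threshold. Leaving out any library gave 4449 to 5220, 5178 to 5829 and 5370 to 5989 genes past adjusted p in Fb-Epn against Fb-Par, Fb-Epn against Fb-Skn and Fb-Par against Fb-Skn. Of the 7 fitted genes of the group, Hp in Fb-Par against Fb-Skn ran from -0.36 to 0.15 and in Fb-Epn against Fb-Skn from 0.50 to 1.02, and Nfkbia in Fb-Epn against Fb-Par from -0.49 to -0.25. The list counts that moved without some library ran from 1 to 2 for subunits and kinases lower (Fb-Epn against Fb-Par), 5 to 8 higher and 0 to 1 lower (Fb-Epn against Fb-Par) and 1 to 2 higher (Fb-Par against Fb-Skn) for feedback inhibitors, 3 to 5 for upstream receptors higher (Fb-Par against Fb-Skn), 0 to 1 for inducing cytokines higher (Fb-Epn against Fb-Par), 3 to 6 for targets lower (Fb-Epn against Fb-Par), 1 to 2 for negative acute-phase proteins higher (Fb-Epn against Fb-Par and Fb-Epn against Fb-Skn), 1 to 2 for lipocalins higher (Fb-Epn against Fb-Skn), 1 to 2 for pentraxins lower (Fb-Epn against Fb-Par), 1 to 3 for S100 genes lower (Fb-Epn against Fb-Par) and 1 to 2 for nitric oxide genes lower (Fb-Par against Fb-Skn).

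With a replicate block, 4859, 5580 and 5799 genes passed in the 3 comparisons, and the count of subunits and kinases lower in Fb-Epn against Fb-Par was 1. No pairing by replicate number was seen in deviations of log2(TPM + 1) from the mean of the type. Between types, libraries with the same number correlated from -0.0419 to 0.0496, and those with different numbers from -0.0455 to 0.0749. The check cannot exclude a pairing, since each type has only 3 libraries, which may be technical repeats.

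Under at least 10 counts in every library, DE genes were 344, 319 and 373 in the 3 comparisons, since genes absent from a type drop out. Lcn2, Wfdc18 and Hp drop out of the fit as well. The moved list counts there were, in Fb-Epn against Fb-Par, subunits lower 1, targets higher 9, positive acute-phase higher 5, negative acute-phase higher 1, lipocalins higher 0 and lower 1, and WAP higher 1. In Fb-Epn against Fb-Skn they were inducing cytokines lower 0, positive acute-phase lower 0, and lipocalins higher 0 and lower 1. In Fb-Par against Fb-Skn they were inducing cytokines lower 0, positive acute-phase lower 0, negative acute-phase higher 0, lipocalins higher 0 and lower 0, and WAP lower 1.

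With limma on log2(TPM + 1), which shrinks low values, DE genes were 421, 580 and 576. Log2 fold changes in Fb-Epn against Fb-Par were 3.13 for Lcn2, 0.86 for Tnfaip3 and 5.46 for Wfdc18. In Fb-Epn against Fb-Skn they were -1.84 for Lcn2, 1.85 for Sod2 and -0.93 for Tnfaip3. In Fb-Par against Fb-Skn they were -4.97 for Lcn2, -1.54 for Ptx3, 0.46 for Sod2, -1.80 for Tnfaip3 and -2.89 for Wfdc18. With limma on log2(TPM + 0.1) the values were 6.30 for Lcn2 and 8.75 for Wfdc18 in the first comparison, -1.95 for Lcn2 and 1.86 for Sod2 in the second, and -8.25 for Lcn2, 0.46 for Sod2, -2.32 for Tnfaip3 and -6.02 for Wfdc18 in the third. Lcn2 and Wfdc18 have 0 counts in Fb-Par, so their values against Fb-Par depend on the added constant, as also with FPKM below. Both limma settings on TPM gave the same moved list counts. They were 0 for feedback inhibitors lower, 0 for inducing cytokines higher and 1 for negative acute-phase higher in Fb-Epn against Fb-Par. In Fb-Epn against Fb-Skn they were 7 for feedback inhibitors higher, 2 for negative acute-phase higher and 1 for iron genes lower. In Fb-Par against Fb-Skn they were 4 for subunits higher, 2 for the STAT3 and C/EBP arm lower, 2 for iron genes lower and 1 for nitric oxide genes lower.

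With limma on log2(FPKM + 1), chosen after the data were seen, DE genes were 281, 395 and 390. Log2 fold changes in Fb-Epn against Fb-Par were 2.26 for Lcn2, 6.24 for Ptx3, 0.66 for Tnfaip3 and 4.41 for Wfdc18. In Fb-Epn against Fb-Skn they were -1.71 for Lcn2 and -0.80 for Tnfaip3. In Fb-Par against Fb-Skn they were -3.97 for Lcn2, -1.52 for Ptx3, 0.42 for Sod2, -1.45 for Tnfaip3 and -2.05 for Wfdc18. The moved list counts were 1 for subunits lower, 0 for inducing cytokines higher and 1 for negative acute-phase higher in the first comparison, 1 for iron genes lower in the second, and 3 for iron genes lower and 1 for nitric oxide genes lower in the third.

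The DESeq2 Wald test gave log2 fold changes of 7.58 (Fb-Epn against Fb-Par) and -9.67 (Fb-Par against Fb-Skn) for Lcn2 and of 9.04 and -6.47 for Wfdc18, both with 0 counts in Fb-Par, so that these fitted values have no measured level under them. Its moved list counts were subunits lower 1 and pentraxins lower 2 in Fb-Epn against Fb-Par, and negative acute-phase higher 2 and lipocalins higher 1 in Fb-Epn against Fb-Skn.

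Upper-quartile factors in edgeR gave 1 for subunits lower and 3 for targets lower in Fb-Epn against Fb-Par. Library size only in edgeR gave 7 for feedback inhibitors higher, 2 for negative acute-phase higher and 2 for WAP lower in Fb-Epn against Fb-Skn, and 1 for nitric oxide genes lower in Fb-Par against Fb-Skn.

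No filter: at least 1 count gave 2 for feedback inhibitors lower and 2 for pentraxins lower in Fb-Epn against Fb-Par and 2 for negative acute-phase higher in Fb-Epn against Fb-Skn. Only the 6 libraries of the comparison gave 2 for pentraxins lower in Fb-Epn against Fb-Par, 1 for lipocalins higher in Fb-Epn against Fb-Skn, and in Fb-Par against Fb-Skn 0 for negative acute-phase higher, 1 for lipocalins higher and 1 for nitric oxide genes lower.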
